A study of Mus musculus with 4 samples.

Results

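Open chromatin in mouse muscle was examined at 9 genes of a regulatory network: Six2, Six4 and Six5 of the sine oculis homeobox family, Eya1, Eya2, Eya3 and Eya4 of the eyes absent family, and Dach1 and Dach2 of the dachshund family. A peak was counted for a gene when the authors' annotation named that gene as the nearest to it, whatever the distance. The 9 genes held 119 of 120839 peaks, of which 32 came from the extensor digitorum longus (EDL), 45 from the quadriceps (Quad), 30 from the soleus (Sol) and 12 from the diaphragm (Dia). Dach2 held none in any muscle, so 8 of the 9 genes carried all of these peaks. Paralogues outside the 9 genes were not analysed here.

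The assay was ATAC-seq, in which the Tn5 transposase cuts and tags accessible DNA, on nuclei of frozen, pulverised muscle from wild-type, sedentary C57BL/6 mice. EDL and Quad are largely fast and glycolytic, Sol is slow and oxidative, and Dia is a breathing muscle of mixed fibres. Each muscle gave 1 sample with 1 peak list, which its label calls pooled, and no genotype or treatment separated the muscles. The labels name the strain C57BL/6, and the study's methods name male C57BL/6J mice bought at 7 to 8 weeks of age. The study's figure legends give sample numbers per group for the ATAC-seq, but not how many animals or replicate libraries each list combines. The age of the animals at harvest is not stated in the sources used here. With 1 list per muscle no difference between muscles could be tested. Every difference below is therefore between these 4 lists, and the intervals given cover counting error only.

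Six2, Six4 and Six5 encode homeodomain factors that bind DNA, and such factors rely on Eya proteins to activate many of their targets. Eya proteins carry both a transactivating region and a phosphatase domain, and they bind the homeodomain factors rather than DNA. Dach proteins, relatives of the Ski oncoprotein, join the complex and mostly repress. In muscle, these homeodomain factors and Eya proteins act upstream of the myogenic factors in the embryo, and in adult muscle they are known for driving fast-fibre genes.

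Sequences of 10 peaks are printed as examples of the sharing patterns, and the comparison of muscles does not rest on them. Of these, 4 are peaks of regions found in EDL and Quad but in neither Sol nor Dia. Another 2 are of regions found in Sol or Dia but in neither EDL nor Quad. A further 2 are of non-promoter regions found in every list. The last 2 are promoters, the first of which was in every list and the second in Quad and Sol only. All sequences are given 5′ to 3′ on the plus strand of GRCm38.p6, the assembly behind mm10, and come from the RefSeq genome. Capitals mark matches to MEF2, the E-box CAGCTG, AP-1 (TGANTCA), the MCAT element (CATTCC) or NFAT (TGGAAA) on either strand. Where regions held several peaks, the peak of the muscle with the highest score percentile is shown.
Eya4, EDL and Quad only, Quad peak at chr10:23178722-23178910: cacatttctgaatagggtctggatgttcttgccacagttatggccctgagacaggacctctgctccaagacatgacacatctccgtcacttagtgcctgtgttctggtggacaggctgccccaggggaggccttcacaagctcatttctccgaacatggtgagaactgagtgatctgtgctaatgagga
Eya4, EDL and Quad only, Quad peak at chr10:23182102-23182290: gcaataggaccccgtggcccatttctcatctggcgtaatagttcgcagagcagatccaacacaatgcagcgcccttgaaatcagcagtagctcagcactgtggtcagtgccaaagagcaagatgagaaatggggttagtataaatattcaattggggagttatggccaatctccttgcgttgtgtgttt
Eya2, EDL and Quad only, EDL peak at chr2:165613829-165614037: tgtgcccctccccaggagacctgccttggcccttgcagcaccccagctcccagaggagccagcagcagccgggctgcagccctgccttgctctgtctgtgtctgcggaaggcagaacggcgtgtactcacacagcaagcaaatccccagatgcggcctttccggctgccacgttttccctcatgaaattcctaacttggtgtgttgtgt
Eya1, EDL and Quad only, EDL peak at chr1:14293772-14293980: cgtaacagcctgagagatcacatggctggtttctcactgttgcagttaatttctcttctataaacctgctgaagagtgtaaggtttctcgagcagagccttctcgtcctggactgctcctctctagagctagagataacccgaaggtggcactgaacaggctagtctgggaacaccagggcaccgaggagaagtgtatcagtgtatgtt
Eya4, Sol and Dia only, Sol peak at chr10:23383743-23383949: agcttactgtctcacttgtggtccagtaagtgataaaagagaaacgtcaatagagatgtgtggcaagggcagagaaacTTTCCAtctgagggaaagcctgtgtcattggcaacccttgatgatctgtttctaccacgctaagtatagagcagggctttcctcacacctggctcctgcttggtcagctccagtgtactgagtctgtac
Six4, Sol only, Sol peak at chr12:73111488-73111694: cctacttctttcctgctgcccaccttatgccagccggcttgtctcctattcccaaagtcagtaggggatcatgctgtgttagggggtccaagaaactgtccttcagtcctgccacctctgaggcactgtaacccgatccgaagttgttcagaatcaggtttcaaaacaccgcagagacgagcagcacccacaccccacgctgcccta
Eya4, all 4 lists, Sol peak at chr10:23089428-23089634: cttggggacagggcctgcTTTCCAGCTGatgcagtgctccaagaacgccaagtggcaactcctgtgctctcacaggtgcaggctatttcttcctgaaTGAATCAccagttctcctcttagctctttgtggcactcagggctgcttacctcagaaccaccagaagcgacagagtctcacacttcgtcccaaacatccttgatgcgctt
Dach1, all 4 lists, Sol peak at chr14:97559554-97559760: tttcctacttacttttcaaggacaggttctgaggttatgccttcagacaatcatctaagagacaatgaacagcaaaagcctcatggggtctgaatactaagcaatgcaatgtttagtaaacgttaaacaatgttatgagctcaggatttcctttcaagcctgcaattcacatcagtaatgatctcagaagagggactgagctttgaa
Six2, promoter, Quad peak at chr17:85688300-85688488: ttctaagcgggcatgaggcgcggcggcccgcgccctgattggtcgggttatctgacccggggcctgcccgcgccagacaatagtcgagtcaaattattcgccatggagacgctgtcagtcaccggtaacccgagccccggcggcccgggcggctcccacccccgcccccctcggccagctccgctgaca
Dach1, promoter, Sol peak at chr14:98169798-98170004: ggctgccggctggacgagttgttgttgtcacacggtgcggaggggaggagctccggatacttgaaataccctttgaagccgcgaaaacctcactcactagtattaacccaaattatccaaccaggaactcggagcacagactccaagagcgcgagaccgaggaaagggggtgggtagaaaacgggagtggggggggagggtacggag

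Matches were few: 8 of the 10 peaks held none. The Eya4 region past the 3′ end of the gene, which every list held, had an NFAT and an E-box match overlapping each other, and an AP-1 match. The Eya4 region found in Sol and Dia held an NFAT match. The first Eya4 intron peak, the strongest of those found in EDL and Quad only, held no match to any of the 5 motifs. A match is only a run of letters, and the lack of a match says only that these letters were not in the window.

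Peak numbers differed widely among the genes. Eya4 led with 37 peaks, 10 (EDL), 14 (Quad), 10 (Sol) and 3 (Dia), followed by Dach1 with 25, split as 6, 8, 8 and 3 in the same order. Eya1 had 5 peaks (EDL), 7 (Quad), 3 (Sol) and 0 (Dia), and Eya2 had 2, 5, 0 and 0. The other genes held few. Six4 had 2, 3, 4 and 2 peaks, Eya3 had 3, 3, 3 and 2, Six2 had 3, 4, 1 and 1, and Six5 had 1 in each muscle. Eya4 thus ranked near the top of all genes: as many peaks or more were held by 176 of 13985 genes with a peak in EDL, 120 of 15575 in Quad and 140 of 13961 in Sol, but by 2010 of 12919 in Dia. Dach1 stood among the upper 6.16% (EDL), 4.95% (Quad), 2.13% (Sol) and 15.6% (Dia).

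The lists themselves differed in length, which bears on each of these counts, and where a list has no peak, the caller reported none there, which does not show closed chromatin. Their lengths were 30136 (EDL), 40337 (Quad), 28784 (Sol) and 21582 (Dia) peaks, at inferred depths between 78.1 and 105 M tags, the lowest being Quad. When each list was cut to its 20000 highest-scored peaks, 15 (EDL), 15 (Quad), 14 (Sol) and 11 (Dia) peaks of the 9 genes were left. At this equal length Quad had no excess. Cutting each list to its upper 50% instead, which leaves Quad the longest, gave 7, 15, 8 and 4 peaks in the same order. Among the 20000, Eya4 had 7, 6, 3 and 3 peaks, Eya1 had 2, 3, 1 and 0, and Six4 had 1, 1, 3 and 2. Of 7 members with a peak there in Quad or Sol, 2 had more in Quad (Eya1 and Eya4) and 3 more in Sol (Six4, Eya3 and Dach1), against 23.1% and 23.4% of all genes.

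**Figure D1:**
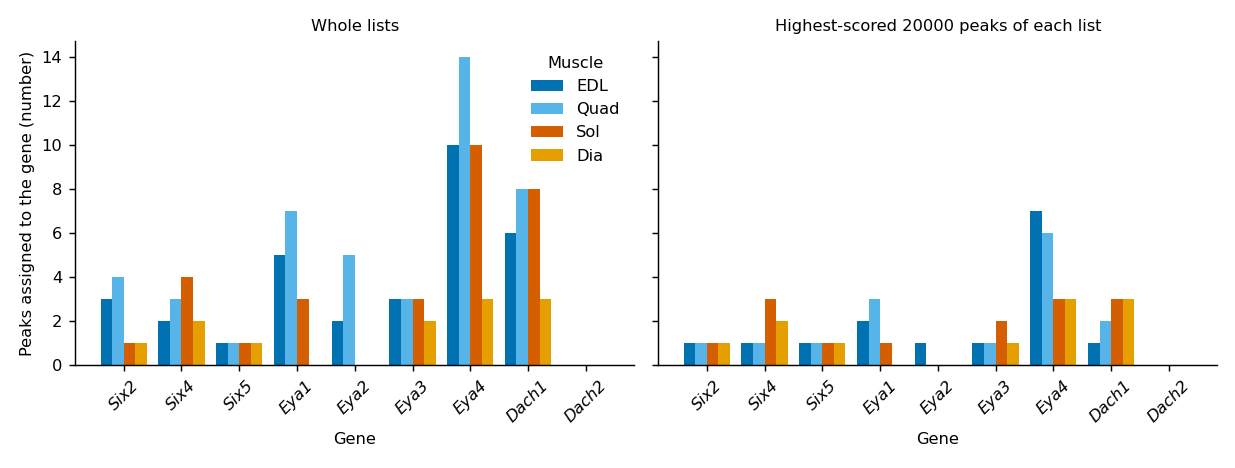
Number of peaks assigned to each gene in the 4 muscles, over the whole lists (left) and over the 20000 highest-scored peaks of each list (right). Eya4 has 14 peaks in Quad in the whole list and 6 in the shortened list, Six4 has most peaks in Sol in both, and Dach2 has no bar.

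Over the whole lists, Quad exceeded Sol in peak number at 4 of 8 genes (Six2, Eya1, Eya2 and Eya4), fell short of it at 1 (Six4) and equalled it at 3. Among all genes with a peak in either muscle, 47.6% had more in Quad and 13.0% more in Sol, so the members' split was near that of the genome. Between EDL and Sol, 3 of 8 genes had more peaks in EDL, with 2 fewer and 3 equal. Of all genes, 27.9% had more in EDL and 23.5% more in Sol. None of the 8 had more in EDL than in Quad, where 11.3% of all genes did, and 6 had more in Quad, against 45.2%. Between Sol and Dia, 5 of 7 genes had more peaks in Sol and none had fewer. Of all genes, 40.0% had more in Sol and 14.2% more in Dia.

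The members' peaks lay farther from a start site than those of the lists as a whole in EDL, Quad and Sol. Promoters, which the annotation ends 1 kb before and 100 bp past a transcription start site (TSS), held 15.6% of the members' peaks in EDL (5 of 32, 95% Wilson interval 6.86% to 31.8%), against 30.7% of the whole list. The share was 13.3% (6.26% to 26.2%) against 25.5% in Quad, 20% (9.51% to 37.3%) against 31.9% in Sol and 33.3% (13.8% to 60.9%) against 41.3% in Dia. Every whole-list promoter share lay inside the members' interval, so the promoter share did not set these genes apart. The share of far peaks exceeded that of the whole list by more than counting error in 3 of the 4 lists. These intervals take peaks as independent, but the far peaks clustered in a few genes. In each of the 3 lists most of them came from Eya4 and Dach1, while Six4, Six5 and Eya3 had no peak beyond 50 kb in any list. The far share therefore does not describe the 9 genes alike. In EDL 59.4% of the members' peaks lay more than 50 kb from the TSS (42.3% to 74.5%), against 20.05% of the list. The far share was 62.2% in Quad (47.6% to 74.9%) against 23.0%, and 46.7% in Sol (30.2% to 63.9%) against 20.9%. In Dia, with 12 peaks, it was 33.3% (13.8% to 60.9%) against 16.3%, which lies inside the interval. Because the nearest gene receives a peak, a gene whose neighbours are far away gathers peaks from a longer stretch. How much of the far share this makes was not tested.

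The peaks were also weak. Peak Score, the authors' signal per peak, is a tag count that HOMER scales to library size, and it is given here as a percentile, the share of a muscle's own list that scores lower. The median percentile of the members' peaks was 30.8 (EDL), 28.0 (Quad), 25.6 (Sol) and 25.7 (Dia), where a whole list has a median near 50. The members' promoter peaks were few, with medians of 80.3 (EDL), 85.4 (Quad), 72.1 (Sol) and 70.8 (Dia). All promoter peaks of the same lists had medians of 76.3, 81.3, 75.7 and 74.1, so the members' promoters stood near other promoters. Single member promoter peaks went as low as 4.70 in Quad and 14.5 in Sol. The peaks outside promoters had medians of 24.0, 25.8, 23.4 and 22.5, below the 38.3, 40.0, 38.2 and 34.1 of all such peaks in the same lists.

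Among the DNA-binding factors, Six2, known for keeping kidney progenitors undifferentiated, had its promoter open in every list. That peak, about 140 bp upstream of the TSS at chr17:85688300-85688488 in Quad, had a score of 9.72 (EDL), 13.6 (Quad), 8.32 (Sol) and 8.86 (Dia). Its percentiles were 71.3, 86.5, 60.3 and 61.4, so Quad was highest. That order was common in these lists. Over the regions of all genes that Quad shared with another list, it ranked higher than EDL in 71.9%, than Sol in 71.3% and than Dia in 84.0%. Counting intervals of scores are exact Poisson intervals on inferred tags, and a score covers the peak's own width of 189 to 233 bases, which differs between lists. The interval of the Quad score, 11.1 to 16.4, did not reach the 10.3 that bounded Sol or the 10.9 that bounded Dia, but it overlapped that of EDL, 7.91 to 11.8. All other Six2 peaks lay 63.1 kb to 189 kb upstream, 2 in EDL and 3 in Quad, none shared between the lists, and none above percentile 24.0.

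Six4, which acts in early myogenesis, also had its promoter in every list. The scores at this promoter were 11.6 (EDL), 12.7 (Quad), 12.8 (Sol) and 8.76 (Dia), with percentiles of 80.3, 84.4, 84.0 and 60.7. EDL, Quad and Sol lay close together and Dia was lowest. Within the gene, Sol had the highest values. A peak in the last intron, 1654 bp downstream of the TSS at chr12:73111488-73111694, was called in Sol only, with a score of 8.32 at percentile 60.3, and the nearest peaks in the other lists were 1514 to 1618 bp away. A peak in the last exon, about 9.38 kb downstream of the TSS, had a percentile of 54.5 in Sol, 21.7 in Dia and 2.97 in EDL, and Quad had none. The counting interval of the Sol score, 6.06 to 9.52, lay above that of EDL, 2.75 to 5.24, and overlapped that of Dia, whose upper bound was 6.98. Past the 3′ end, a region 15.3 kb downstream of the TSS was at percentile 28.0 in Quad and 23.4 in Sol. Quad alone had a peak 20.2 kb downstream, at percentile 4.70. Over the whole lists, Six4 was the only member with more peaks in Sol than in Quad.

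Six5, the neighbour of the myotonic dystrophy kinase gene Dmpk, held 1 strong promoter peak per muscle, with scores of 12.0 (EDL), 17.4 (Quad), 15.6 (Sol) and 14.0 (Dia). The percentiles were 81.7, 92.7, 90.4 and 84.8. The EDL, Quad and Sol peaks lay 630 to 634 bp upstream of the TSS and overlapped each other. The Dia peak lay 301 bp upstream, 109 bp from the Sol peak, so the literal overlap counted it as a separate region. Joining peaks within 500 bp merged them.

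Among the coactivators, Eya3 was the most uniform. Its promoter peak, about 60 bp upstream of the TSS, had scores of 15.2 (EDL), 16.6 (Quad), 14.0 (Sol) and 12.5 (Dia), at percentiles 89.7, 91.8, 87.1 and 80.1. These were the highest values of any region found in all 4 lists. The remaining Eya3 regions, at 19.8 and 30.7 kb upstream and 14.0 kb downstream, reached percentile 33.4 at most.

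Eya1, which acts with homeodomain partners in muscle precursors and is mutated in branchio-oto-renal syndrome, had peaks in EDL, Quad and Sol but none in Dia. The gene spans chr1:14168954-14310235 on the minus strand, and the nearest Dia peak of any gene to its first exon was 648990 bp away. The peak in the first exon had a score of 5.87 in EDL, 9.48 in Quad and 4.59 in Sol, at percentiles 37.0, 71.9 and 16.1. Quad was highest, as it was by percentile at most shared regions of any gene. Its counting interval of 7.44 to 11.9 did not overlap that of Sol, 3.38 to 6.08. A peak in intron 12, 120 kb downstream of the TSS, scored 8.08 in EDL, 8.96 in Quad and 5.93 in Sol, at percentiles 60.3, 69.05 and 35.8. Here the counting intervals of all 3 lists overlapped. A peak in intron 9, 74.0 kb downstream, was called in Quad only, at percentile 66.6. An intron 2 peak, 16.3 kb downstream, was in EDL at percentile 33.0 and in Quad at 7.89, and in neither other list. The other Eya1 peaks lay at percentile 21.9 or below.

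Eya2 was assigned peaks only in EDL and Quad, but none of them was strong. The region that both lists shared, 16.4 kb upstream of the annotated TSS and inside the first intron of a longer transcript, was at percentile 34.3 in EDL and 11.6 in Quad. The other 5 Eya2 regions, 1 in EDL and 4 in Quad, lay between percentiles 2.35 and 34.4. In the 20000 highest-scored peaks a lone EDL peak remained. Sol and Dia peaks nearest to the shared region were 109855 and 109843 bp away. Sol and Dia each had 1 peak within 50 kb of the gene's ends, which had been assigned to another gene.

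Eya4, whose human mutations cause hearing loss and cardiomyopathy, carried 37 peaks in 21 regions from 200 kb upstream to 260 kb downstream of the TSS, and its stretches differed by muscle. The gene spans chr10:23102963-23350786 on the minus strand. Inside the gene EDL had 4 peaks, Quad 7, Sol 2 and Dia 0. From 30 to 100 kb upstream of the TSS there were 0 peaks (EDL), 0 (Quad), 3 (Sol) and 2 (Dia). More than 100 kb upstream there were 3 (EDL), 4 (Quad), 2 (Sol) and 0 (Dia). These stretches were drawn after the positions had been seen, so their counts are a description.

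In intron 3 of Eya4 the peak 171 kb downstream of the TSS scored 5.68 in EDL and 13.1 in Quad, at percentiles 34.3 and 85.3. The Quad value was the highest of any non-promoter peak of these genes, and its counting interval of 10.7 to 15.9 lay above the 4.32 to 7.32 of EDL. Sol had a separate peak 618 bp away at percentile 27.7, and Dia had none within 88957 bp. A neighbour 168 kb downstream was at percentile 40.9 in EDL and 64.0 in Quad, with the nearest Sol peak 4118 bp away. The counting intervals of its scores overlapped, at 4.74 to 7.86 in EDL and 6.31 to 10.5 in Quad. Another, 138 kb downstream, was in 3 lists, at percentiles 46.6 in EDL, 71.9 in Quad and 23.4 in Sol. By percentile, each of these 3 regions was highest in Quad, but so were most regions of any gene: 71.9% of all regions shared by EDL and Quad ranked higher in Quad, and 71.3% of those shared by Quad and Sol did. The regions far upstream of the gene were split between EDL and Quad. A region at 139 kb was in EDL at percentile 56.1 and in Quad at 46.5, and a region at 192 kb was in EDL at 22.3 and in Quad at 34.4, with a Sol peak 522 bp away. A region at 193 kb, in 3 lists, was at 35.7 in EDL, 28.0 in Quad and 1.85 in Sol.

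The Eya4 peaks on the side of Sol and Dia were weaker. The region 33.9 kb upstream, at chr10:23383743-23383949 in Sol, had a score of 6.31 in Sol and 5.64 in Dia, at percentiles 40.5 and 26.5. It was the only region of these genes found in Sol and Dia and nowhere else, and the nearest EDL and Quad peaks were 19541 and 19481 bp away. Near 45 kb upstream, Sol had a peak at percentile 35.8 and Dia a peak at percentile 15.0, 152 bp apart. A Sol peak 53.6 kb upstream lay at percentile 1.85.

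The Eya4 promoter was called in 3 lists, but not at the same place. EDL had a peak 656 bp upstream of the TSS at percentile 37.0 and Sol a peak 561 bp upstream at percentile 14.5, which overlapped. Quad had its peak 864 bp upstream, at percentile 69.8, 9 bp from the edge of that region. Dia had none within 32780 bp. At 14.1 kb upstream, EDL, Quad and Sol shared a region at percentiles 17.1, 73.3 and 23.4. Quad again was highest, as by percentile at most shared regions of any gene, with a score of 9.73 (7.67 to 12.2) against 5.07 in Sol (3.79 to 6.63). The region past the 3′ end, 260 kb downstream of the TSS, was in every list, with scores of 6.73 (EDL), 7.94 (Quad), 11.4 (Sol) and 5.44 (Dia). Sol led there at percentile 78.8, against 47.6 in EDL, 62.1 in Quad and 23.4 in Dia, and its interval of 9.42 to 13.6 overlapped that of Quad, 6.09 to 10.2.

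**Figure D2:**
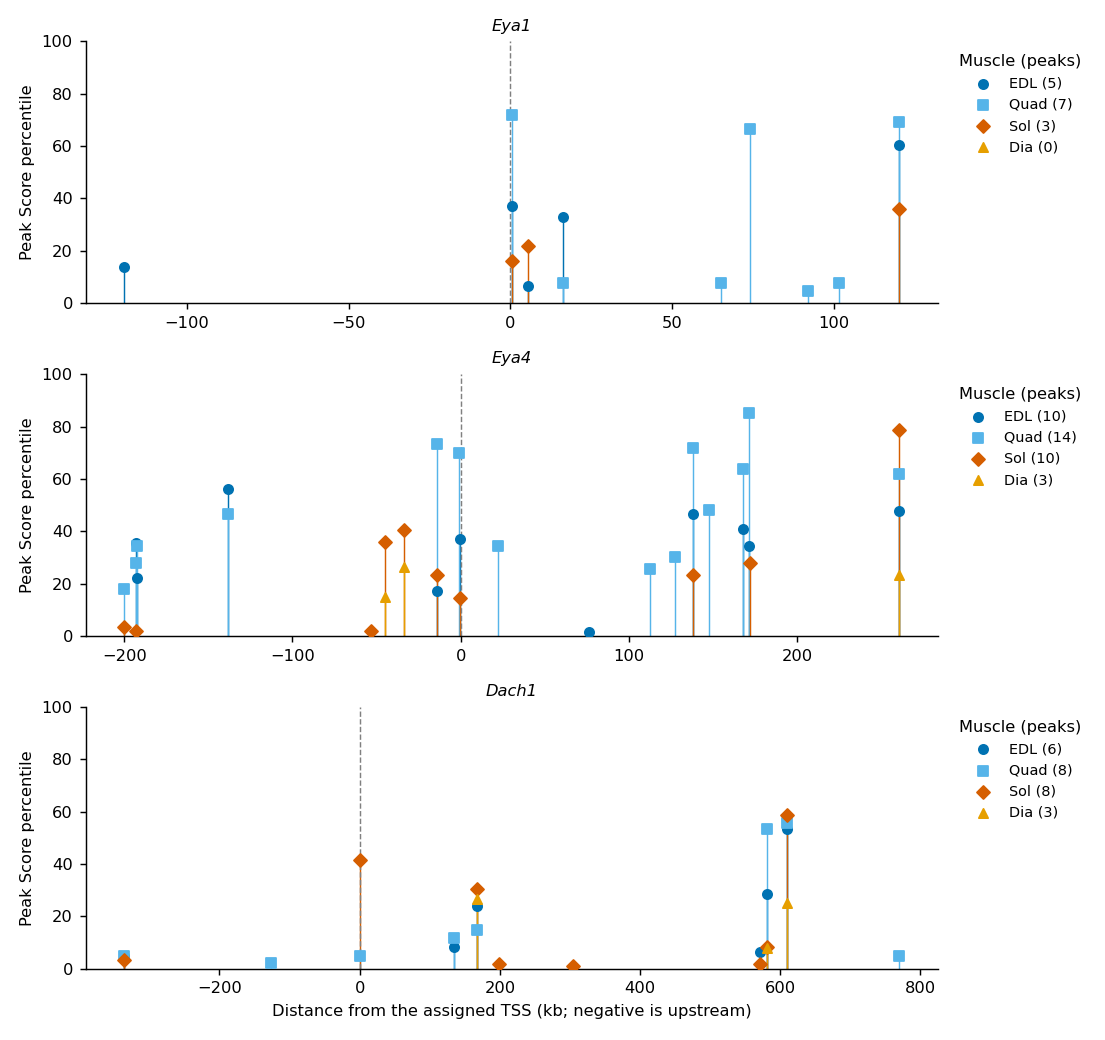
Peaks of Eya1, Eya4 and Dach1 by distance from the assigned TSS in kb (x axis) and Peak Score percentile within the muscle's list (y axis), with 1 symbol per peak. Eya4 has 7 Quad peaks and no Dia peak inside the gene, while its 5 peaks from 30 to 100 kb upstream are all from Sol and Dia.

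Dach1, a corepressor that can join homeodomain factors and Eya proteins, had 25 peaks in 11 regions that reached 336 kb upstream and 769 kb downstream of the TSS. The gene spans chr14:97786853-98169765 on the minus strand. Its promoter was called in Quad and Sol only. The score there was 3.97 in Quad and 6.40 in Sol, at percentiles 4.70 and 41.6, and the nearest EDL and Dia peaks were 134219 and 167234 bp away. The counting intervals overlapped, at 2.70 to 5.64 in Quad and 4.96 to 8.13 in Sol. Dach1 was the member with most regions in all 4 lists outside promoters, 3 of 11. The strongest, 610 kb downstream of the TSS and well past the end of the gene, was at percentile 53.4 (EDL), 55.7 (Quad), 58.6 (Sol) and 24.96 (Dia). EDL, Quad and Sol lay close together there and Dia was lowest. A region 581 kb downstream was at 28.6, 53.3, 8.21 and 8.03 in the same order, and an intron 2 region 167 kb downstream at 24.0, 15.0, 30.6 and 26.5. An intron 1 region 134 kb downstream, at 8.30 in EDL and 11.6 in Quad, was called in neither Sol nor Dia. Peaks at 199 kb and 305 kb downstream were in Sol only, at percentiles 1.85 and 0.893.

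Dach2, a corepressor known for holding down myogenin in innervated muscle, had no peak. The gene spans chrX:113297510-113836386 and, like the spans above, is taken from GENCODE vM21, and no list held a peak of any gene inside it or within 50 kb of its ends. Around Six2, Eya1, Eya4 and Dach1, every peak within that window had been assigned to the gene itself.

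Merging peaks that overlapped by at least 1 bp gave 64 regions for the 8 genes, none of which was shared with another gene. All 4 lists held 7 of them, or 10.9% (5.40% to 20.9%), against 26.9% of all 53883 regions. The 7 were the promoters of Six2, Six4 and Eya3, the Eya4 region past the 3′ end and 3 Dach1 regions. Promoters were scarcer among the members, so the classes were also read apart. Among promoters, 3 of 8 member regions were in all lists (37.5%, 13.7% to 69.4%), against 66.1% of all promoter regions. Six5 and Eya4 each gave more than 1 of these 8, because their promoter peaks missed each other by 109 bp and 9 bp. Joined within 500 bp, the Six5 promoter was in all lists too, so the 37.5% depends on the overlap rule. Outside promoters, 4 of 56 were in all lists (7.14%, 2.81% to 17.0%), against 16.0% of all such regions. Both backgrounds lie inside the members' intervals, so within each class the gap lay within counting error. The members' low scores moved with the same comparison, and their part in it was not tested.

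Regions found in EDL and Quad only numbered 7, or 10.9%, against a background of 8.05%. Regions found in EDL or Quad but in neither Sol nor Dia made up 50% (32 of 64, 38.1% to 61.9%), against 37.5%, which lies just below the interval. Outside promoters the share was 55.4% (31 of 56, 42.4% to 67.6%) against 44.4%, inside the interval, so no excess remained beyond counting error. Of these 32, 20 were in Quad alone, the list with most peaks. Regions found in Sol or Dia but in neither EDL nor Quad were 9, or 14.1% (7.58% to 24.6%), against 14.4%. The members thus stood close to the genome in their share of Sol and Dia regions. Among the 18 regions that Quad and Sol shared, 13 had a higher percentile in Quad, or 72.2%, against 71.3% of all regions shared by that pair.

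**Figure D3:**
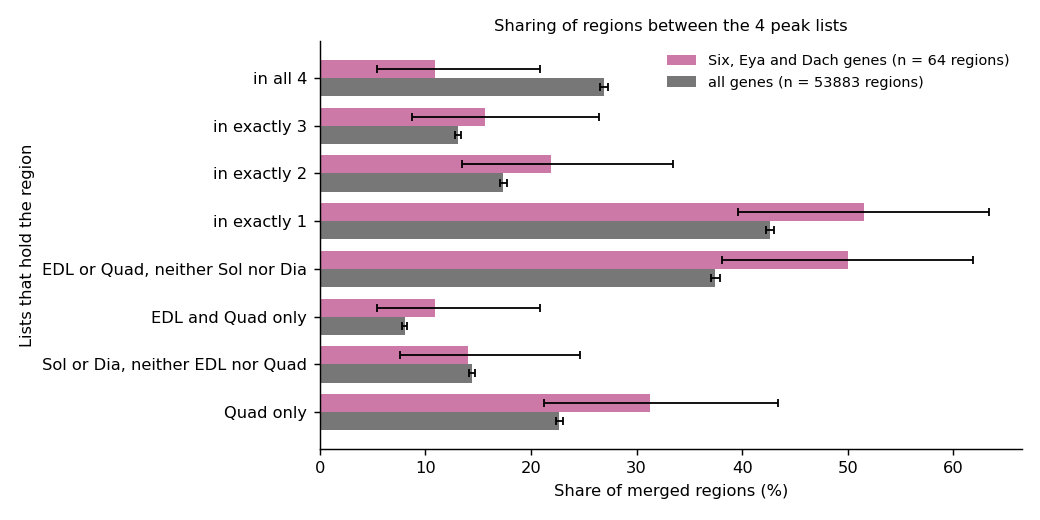
Share of merged regions (x axis, %) by the lists that hold them, for the 64 regions of the 8 genes with a peak and for all 53883 regions. Error bars are 95% Wilson intervals, for counting error only, and the members' bar for all 4 lists, 10.9%, ends below the 26.9% of all regions.

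Pairs of lists shared unequal parts of their member regions. EDL and Quad shared 22, which was 68.8% of the EDL regions and 48.9% of the Quad regions, against 80.8% and 60.4% over the regions of all genes. EDL and Sol shared 20, or 62.5% and 66.7%, against 68.3% and 71.5%. Quad and Sol shared 18, or 40% and 60%, against 53.96% and 75.6%. Each of these shares was below that of all genes. Of the 12 Dia regions, 10 were also in Sol (83.3% against 77.2%), 9 in EDL (75% against 77.3%) and 7 in Quad (58.3% against 80.7%). Peaks without a counterpart in another muscle were 15.6% of the members' EDL peaks, 44.4% of the Quad, 20% of the Sol and 16.7% of the Dia peaks, against 12.0%, 30.3%, 16.1% and 11.5% of the whole lists. Quad stood highest in both.

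**Figure D4:**
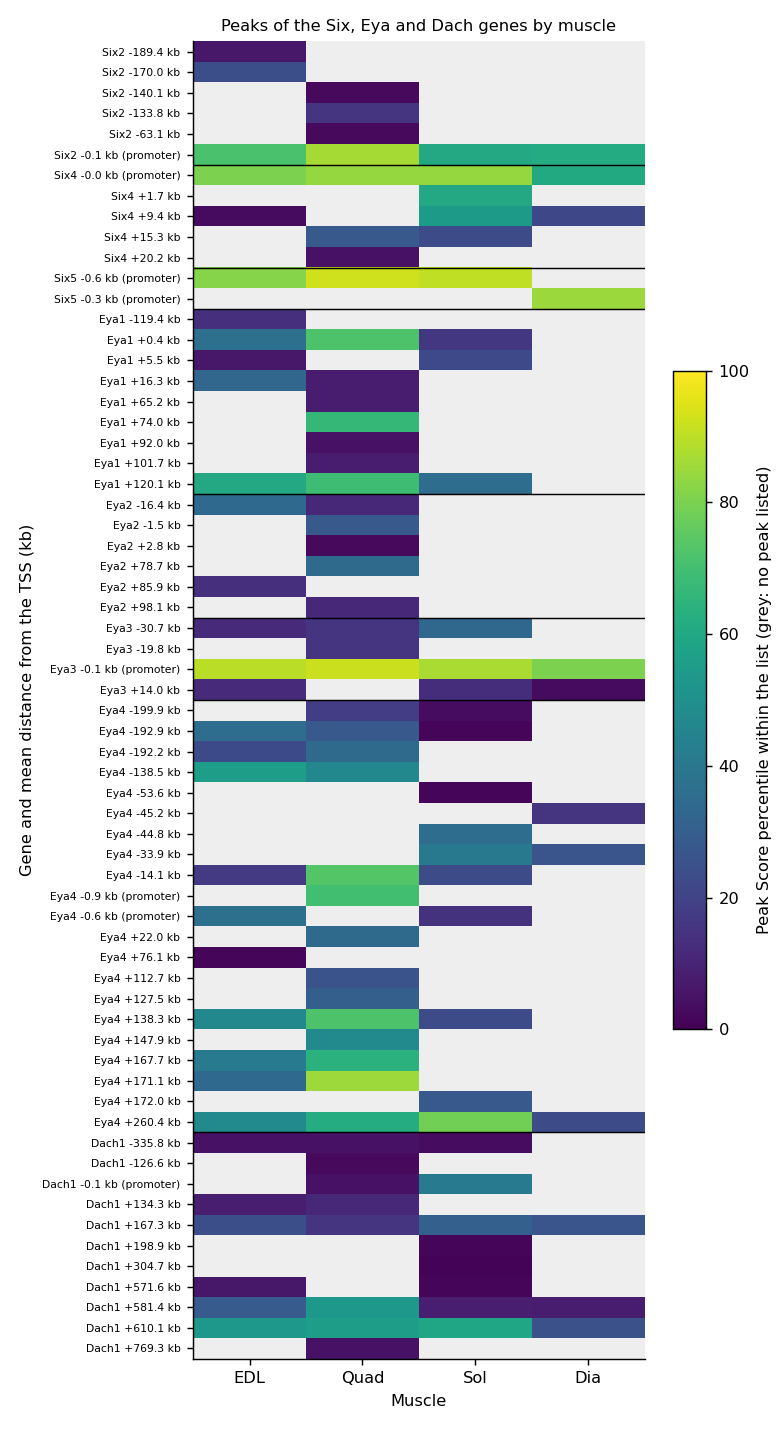
Peak Score percentile (colour, 0 to 100) of each of the 64 merged regions (rows, by gene and mean distance from the TSS in kb) in the 4 muscles (columns), where grey means that no peak was listed. The promoters of Six2, Six4 and Eya3 are coloured in all 4 columns, and Eya1 and Eya2 are grey throughout in Dia.

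Base composition and motifs were compared over all regions. In windows of 200 bp centred on the peak with the highest percentile in each region, the mean GC content was 50.4% over the 64 member regions and 54.3% over all regions, and outside promoters it was 48.7% against 51.6%. MEF2 matches were found in 5 of 64 member windows (7.81%, 3.38% to 17.0%), against 3.78% of all windows. For the E-box it was 8 (12.5%, 6.47% to 22.8%) against 20.1%. AP-1 matched 7 windows (10.9%) against 9.36%, MCAT 6 (9.38%) against 12.1% and NFAT 14 (21.9%) against 18.1%. Every background share lay inside the members' interval, so these counts did not set the members apart from other regions. AP-1, MCAT and NFAT intervals ran from 5.40% to 20.9%, 4.37% to 19.0% and 13.5% to 33.4%.

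Tissue markers were checked in the same lists. All 5 skeletal muscle markers had a peak in every list, as did all 5 endothelial markers. Of 6 slow-fibre markers, 3 (EDL), 3 (Quad), 6 (Sol) and 4 (Dia) had a peak, and of 4 fast-fibre markers 4, 4, 2 and 2 did. By these counts Sol had most slow-fibre markers with a peak, and EDL and Quad had most fast-fibre markers. Peaks at the fast-fibre markers numbered 4 (EDL), 9 (Quad), 3 (Sol) and 3 (Dia), so by peak number EDL stood near Sol and Dia. Of the longer list of 17 fast-fibre genes, 13 (EDL), 17 (Quad), 12 (Sol) and 9 (Dia) had a peak. List length bears on these counts too. In the same order, peaks were found at 1, 2, 1 and 1 of 2 satellite cell markers, 3, 3, 2 and 1 of 4 leukocyte markers and 3, 3, 2 and 2 of 4 fibroblast markers. Every list also had a peak at 1 of 3 Schwann cell markers and 1 of 2 tendon markers. Markers of several cell types were therefore among the listed genes. In such bulk samples fewer cells of a type and less open chromatin per cell cannot be told apart, and the part of other cell types in the peaks above was not tested.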

How the data were processed

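ATAC-seq peak lists of 4 muscles, 1 pooled list each, were used as deposited. Per the labels and the study's methods, the authors aligned reads to mm10 with Bowtie2. They used HOMER to limit each start position to 1 tag, to call fixed-width peaks and to annotate them by the nearest TSS. The deposited Peak Score is a signal, a tag count that the authors' tool scaled to library size, and peaks measured 209 (EDL), 189 (Quad), 207 (Sol) and 233 (Dia) bases. The Tn5 offset and any removal of mitochondrial or repeat reads were not given in the sources used here. The deposited Distance to TSS and annotation were used unchanged.

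From these lists, peaks of the 9 genes were counted by gene name, ranked within their list as percentiles, and merged across lists where they overlapped by at least 1 bp. Merging was tested on simulated data. Tags were inferred from the score step, assuming HOMER's scaling, which at least 95.6% of the scores below 10 followed, and gave depths of 78.1 to 105 M. Score intervals are exact Poisson intervals on these tags, and shares carry 95% Wilson intervals. No p-value was computed. All 120769 peaks on assembled chromosomes ended inside GRCm38.p6. Alternatives were shorter lists, other overlap rules, limits on distance and gene positions from GENCODE vM21. Python 3.11.15, pandas 2.3.3, SciPy 1.17.1 and pysam 0.24.0 were used.

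The members, gene lists and rules were chosen with earlier results of these data known. All 9 members were named, with their promoter regions, the regions of EDL and Quad only, those of Sol or Dia without EDL and Quad, and up to 5 regions in all lists. Genes of other lists were named where Quad and Sol differed by 2 or more peaks, at most 6 per list, and genes like a member where all 4 counts were equal.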

Additional observations from a re-analysis of the deposited data

How the results depend on the processing

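No paired analysis was possible because each muscle had 1 peak list and no test was made. Of 113 alternative values, 73 kept close to the reported value, 39 moved and 1 reversed: within 50 kb of the TSS, Eya4 had 1 peak fewer in Quad than in Sol (-1). The 73 include 13 from a common score limit of 3.63, which removed no member peak, so these could not move. Values for Dach2, which held no peak, could not move either. The total thus overstates stability: among the 20000 highest-scored peaks, 20 values moved and 14 kept close. Member peaks fell to 15 (EDL), 15 (Quad) and 14 (Sol) among the 20000 highest-scored peaks, to 7, 15, 8 and 4 (Dia) in the upper 50% of each list, and to 13, 17 and 16 within 50 kb of the TSS, whereas the window around each gene gave 24 in Dia. The promoter share rose to 33.3% in EDL and Quad among the 20000, and in the upper 50% to 57.1% (EDL), 33.3% (Quad), 50% (Sol) and 100% (Dia). Merged regions numbered 28 among the 20000 and 19 in the upper 50%, where 3 were in all lists. Pairs then shared 11 (EDL and Quad), 7 (EDL and Sol), 5 (EDL and Dia) and 7 (Quad and Sol) regions among the 20000. Peaks in no other list became 8 in EDL at 50% reciprocal overlap, 3 in Quad among the 20000 and 0 in Dia when joined within 500 bp. The median percentile among the 20000 was 47.6 in EDL, 71.9 in Quad and 56.6 in Sol. These moves follow from fewer, stronger or differently joined peaks. The share in all lists stayed below the background under every overlap rule and list length, for example 17.9% against 35.2% among the 20000. The lowest-scored peak held 25 to 36 inferred tags, fewest in Quad, the longest list and the one with the lowest inferred depth. How depth bears on weak peaks was not tested.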

Other observations

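Partners of the 9 genes were counted in the same lists. Of 9 myogenic and upstream factors, 6 had a higher peak number in Quad, 1 in Sol and 2 were equal, against 47.6% and 13.0% of all genes, but among the 20000 highest-scored peaks of each list 0 had more in Quad and 5 had more in Sol. Tbx15 had 11 peaks in Quad and 6 in Sol, Sox6, which represses slow-fibre genes, had 17 and 12, and Mef2c had 15 and 12. Myf5, a myogenic factor of precursors, had 2 in Quad and 0 in Sol, and Myf6 had 4 and 6. All 3 Groucho corepressors had more peaks in Quad, with 9 against 5 for Tle1 and 15 against 7 for Tle3. Of the Ski family, which shares a domain with Dach, Ski had 4 peaks in Quad and 7 in Sol, and Skil had 3 and 1.

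Fast-fibre genes, some of them known targets of the network, were a list chosen with earlier results of these data known. Of 17 such genes, 11 had a higher peak number in Quad and 0 in Sol, and the counts were again 11 and 0 among the 20000 highest-scored peaks, where 2968 of 12857 genes had more in Quad and 3008 more in Sol. Pvalb, the calcium buffer of fast fibres, had 4 peaks in Quad and 2 in Sol, and Actn3 and Mybpc2 had 2 and 0 each. Of the 8 network genes with a peak, 4 had more in Quad over the whole lists, against 47.6% of all genes. Among the 20000 highest-scored peaks, 2 of 7 network genes had more in Quad and 3 had more in Sol.

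Genes with the same 4 peak counts as a member numbered 24 for Six2, led by Dusp23, Rasa4 and Bsn, 15 for Six4, led by Nectin2, Rhoq and Elovl5, and 103 for Eya3, led by Nfyc, Pcnt and Tango2. Eya1, Eya4 and Dach1 had no such gene. Near Six5, within 50 kb of its ends, there were 8 (EDL), 9 (Quad), 6 (Sol) and 6 (Dia) peaks, of which 7, 8, 5 and 5 had been assigned to neighbouring genes. Around Eya3 the corresponding numbers were 8, 7, 8 and 6 peaks, of which 5, 4, 5 and 4 had gone to neighbours. Around Six4 they were 5, 5, 8 and 6 peaks, of which 3, 2, 4 and 4 had gone to neighbours.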
